A study of Homo sapiens with 8 samples.

Results

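The GRB7 family of adaptor proteins has 3 members, GRB7, GRB10 and GRB14. Their RNA was followed here together with that of GRB2 and GAB1, which are adaptors of other families. The 5 genes were found by their identifiers among the 37441 genes of the count table, and all 5 passed the filter that left 18203 genes for testing (a sum of 10 counts or more across the libraries). GRB7 was chosen by its much lower counts in both resistant variants, so its values between sensitive and resistant cells are a description and carry no test. The other members were taken for their family or function, with earlier results of these data already known.

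NCI-H1581 and NCI-H1703 are non-small cell lung cancer lines whose growth is slowed by inhibitors of fibroblast growth factor receptors (FGFR). The variants NCI-H1581R and NCI-H1703R came from culture with stepwise more CPL304110, an inhibitor of these receptors, from 50 nM to a final 2.5 μM for NCI-H1581R and 5 μM for NCI-H1703R, over 4 to 6 months. Cells of all 4 variants were harvested 24 h after fresh medium was given, with 2 replicates each, and the methods do not say whether that medium contained the inhibitor. Each line has 1 resistant variant, so the replicates are repeat cultures of that variant and not separate selections.

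Adaptor proteins have no enzyme activity of their own. The GRB7 family and GRB2 bind the phosphorylated tyrosines of an activated receptor through an SH2 domain and bring other proteins to it. GRB7, GRB10 and GRB14 share a Ras-associating domain, a pleckstrin homology domain and a region between the pleckstrin homology and SH2 domains through which GRB10 and GRB14 inhibit the insulin receptor. GRB7 binds ERBB2 and focal adhesion kinase, has been linked to cell migration, and lies beside ERBB2, with which it is co-amplified in breast and gastric cancers. GRB2 carries the Ras activator SOS to receptors, and GAB1 is a docking protein that GRB2 recruits and that in turn binds PI3K and the phosphatase SHP2.

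The genes lie apart in the genome (GRCh38, GENCODE v44). GRB7 (ENSG00000141738) is at chr17:39737927-39747291 on the plus strand and GRB2 (ENSG00000177885) at chr17:75318076-75405709 on the minus strand. GRB10 (ENSG00000106070) is at chr7:50590063-50793462 and GRB14 (ENSG00000115290) at chr2:164492417-164621482, both on the minus strand, and GAB1 (ENSG00000109458) is at chr4:143336876-143474565 on the plus strand. No other annotated gene shared exon sequence with any of them.

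GRB14 was the family member that rose in NCI-H1581R, and RefSeq (GRCh38.p14) gives it 2 transcription starts. The windows around them, 300 bases each that lie mostly before the start, both on the minus strand, are printed because the deposited counts are summed per gene and so do not say which start was used. Capitals mark matches to the ETS factor core CCGGAA, read on both strands, or to the AP-1 site TGANTCA.

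GRB14 first start, chr2:164621433-164621732: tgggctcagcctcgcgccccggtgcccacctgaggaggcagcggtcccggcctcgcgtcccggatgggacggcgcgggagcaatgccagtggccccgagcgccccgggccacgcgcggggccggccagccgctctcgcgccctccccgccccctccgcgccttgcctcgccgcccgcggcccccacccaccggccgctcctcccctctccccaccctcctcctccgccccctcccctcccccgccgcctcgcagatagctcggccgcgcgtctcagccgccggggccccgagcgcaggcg

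GRB14 second start, chr2:164568446-164568745: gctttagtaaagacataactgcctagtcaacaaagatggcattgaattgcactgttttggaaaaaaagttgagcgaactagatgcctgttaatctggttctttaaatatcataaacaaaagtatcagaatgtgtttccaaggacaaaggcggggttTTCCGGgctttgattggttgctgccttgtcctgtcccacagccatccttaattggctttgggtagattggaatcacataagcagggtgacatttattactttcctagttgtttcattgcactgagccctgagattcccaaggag

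The first window was 81.7% G and C with 43 CpG, against medians of 58.7% and 14 CpG over 35116 RefSeq promoter windows of the same length. It held no match to either motif and 3 GC boxes (GGGCGG, which 45.0% of the windows contain and which can share up to 2 letters with CCGGAA). The second window was 41.3% G and C with 3 CpG and held 1 ETS match and no GC box. CCGGAA occurs in 17.2% and TGANTCA in 7.71% of all the windows. Their medians of G and C and of CpG are higher than in the second window. The shares are therefore only a rough guide, and no weight is put on its single match. GRB10 has 5 such windows and GRB2 has 1, and none held a match to CCGGAA or TGANTCA. GRB7 and GAB1 were not among the sequences used here.

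The libraries held 33800389 to 40031710 counts, and 3 counts correspond to 0.0749 to 0.0897 CPM (counts scaled to a common library size, with TMM factors over the 8 libraries). Replicates of all 4 variants differed by more than sampling noise. The replicates are not stated to come from separate thaws, so p-values measure the spread between these cultures only. Epithelial markers were low (summed level of 6 genes 10.0 to 78.4 CPM) and stood at 77.8 to 78.4 CPM in NCI-H1703 and 10.0 to 11.4 CPM in NCI-H1703R, where KRT18, a keratin of simple epithelia, fell (log2 fold change -4.56, adjusted p = 9.23e-05 by edgeR). Mesenchymal markers were high (5 genes, 2670 to 6810 CPM) and were led by vimentin in every library. Fibronectin (FN1) rose in NCI-H1581R, from 21 and 57 to 28023 and 36165 counts (9.64, adjusted p = 3.42e-05 by edgeR), and fell in NCI-H1703R (-0.74, adjusted p = 0.0663). The list did not move as a block in either line. In NCI-H1581R ZEB1 rose (3.68, adjusted p = 0.00093 by edgeR) and ZEB2 fell (-2.56, adjusted p = 0.000369). In NCI-H1703R ZEB2 rose (3.52, adjusted p = 0.00321 by edgeR) and CDH2 fell (-5.42, adjusted p = 8.9e-05). These marker genes were named after their values were seen. The blood and endothelial list (6 genes, 15.3 to 97.2 CPM) was almost wholly CD68, a lysosomal protein that many cell types make, and its defining leukocyte marker PTPRC had 0 to 15 counts. Markers of lung adenocarcinoma (4 genes) summed to 1.96 to 2.6 CPM in NCI-H1703 and its variant and to 15.6 to 61.5 CPM in NCI-H1581 and its variant. Squamous markers (6 genes) were lower in NCI-H1703R (1.0 to 1.53 CPM) than in NCI-H1703 (38.3 to 38.6 CPM) and higher in NCI-H1581R (34.6 to 39.3 CPM) than in NCI-H1581 (7.79 to 8.34 CPM), and the neuroendocrine list (5 genes) spanned 8.61 to 104 CPM. Single genes led these sums. SOX2 led in NCI-H1703 (1407 and 1244 counts, 21 and 7 in NCI-H1703R) and TP63 in NCI-H1581R (1045 and 1229 counts, 211 and 232 in NCI-H1581). NKX2-1 led the adenocarcinoma sum in NCI-H1581 and its variant, and SYP the neuroendocrine sum. They too were named after their values were seen. Several marker sums thus moved with resistance, and their part in the results below was not tested.

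GRB7 was present in both sensitive lines and was low in both resistant variants. It had 506 and 407 counts in NCI-H1581 and 19 and 10 in NCI-H1581R. In NCI-H1703 it had 708 and 686 counts and in NCI-H1703R 99 and 121. The replicates of sensitive and resistant cells did not overlap in either line. With 2 against 2 libraries this is a weak mark, and the share of all genes without overlap is not given. GRB10 in NCI-H1581R and GAB1 in NCI-H1703R did not overlap either, at an adjusted p of 0.805 and 0.619 by edgeR. As levels, GRB7 stood at 12.6 ± 3.43 CPM (SD, n = 2) in NCI-H1581, 0.379 ± 0.177 in NCI-H1581R, 19.8 ± 0.973 in NCI-H1703 and 2.91 ± 0.408 in NCI-H1703R. The difference was 32.7-fold in NCI-H1581R (log2 fold change -5.03, SE 0.453) and 6.68-fold in NCI-H1703R (-2.74, SE 0.183), both lower. In RNA of whole cultures, fewer cells that express GRB7 and less GRB7 RNA per cell cannot be told apart.

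Between the lines GRB7 was 1.58-fold higher in NCI-H1703 than in NCI-H1581 (log2 fold change 0.66, SE 0.209) and 7.79-fold higher in NCI-H1703R than in NCI-H1581R (2.96, SE 0.54). These comparisons use the same values that GRB7 was chosen for, so they are given without a test. Without NCI-H1581 replicate 1 or 2 the log2 fold change between the sensitive lines was 0.96 or 0.40.

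**Figure D1:**
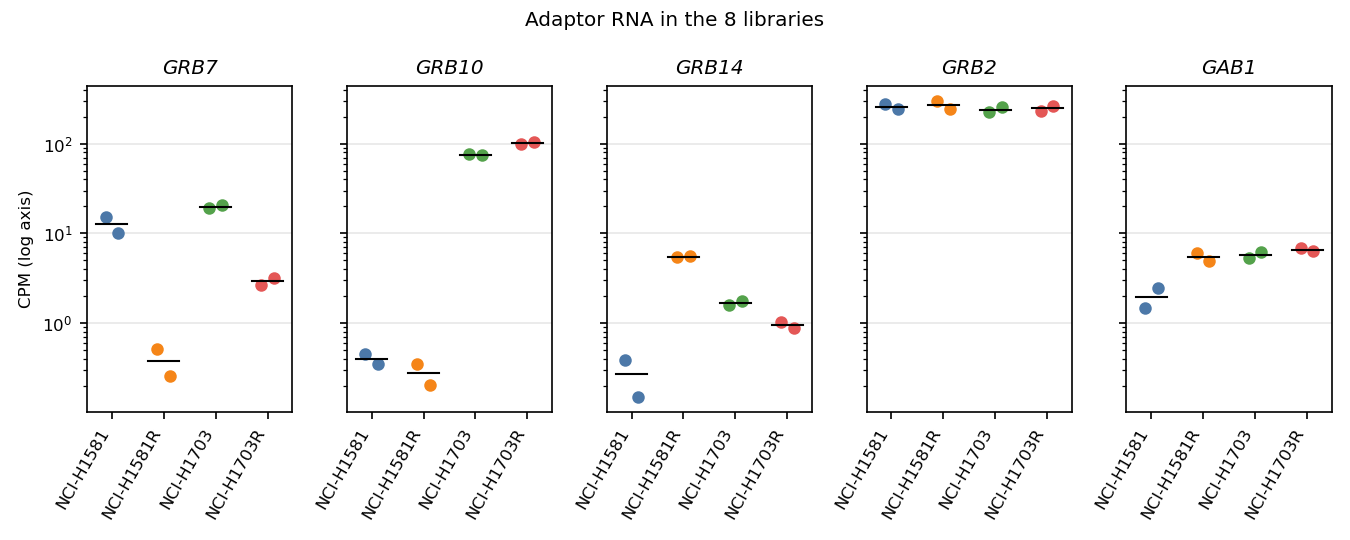
Level of each adaptor in CPM on a log axis in the 4 variants, with 1 point for each of the 2 replicates and a line at their mean. GRB7 is low in both resistant variants, GRB14 is highest in NCI-H1581R, GRB10 is high in NCI-H1703 and NCI-H1703R, and GRB2 lies between 223 and 301 CPM in every library.

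GRB14, an inhibitor of insulin receptor signalling, moved the opposite way to GRB7 in NCI-H1581R. It had 13 and 6 counts in NCI-H1581 and 206 and 217 in NCI-H1581R, so the resistant cells were higher. The replicates did not overlap, which is a weak mark with 2 against 2 libraries. The level rose from 0.268 ± 0.167 to 5.49 ± 0.0273 CPM (SD, n = 2 each), a 20.8-fold rise (log2 fold change 4.38, SE 0.545; adjusted p = 0.00288 by the quasi-likelihood test of edgeR, Benjamini-Hochberg adjusted). A gene was called when its adjusted p was under 0.1. The size of the rise rests on few counts in NCI-H1581, and the log2 fold change was 5.16 without NCI-H1581 replicate 1 and 3.83 without NCI-H1581 replicate 2, called both times. In NCI-H1703 the counts were 59 and 58, and in NCI-H1703R 39 and 33. The resistant replicates of that line were lower without overlap, but the difference was not called (log2 fold change -0.77, 95% interval -1.71 to 0.163; adjusted p = 0.298 by edgeR). The change with resistance differed between the lines (interaction -5.16 on the log2 scale, NCI-H1703 minus NCI-H1581, SE 0.696; adjusted p = 0.0028), where 16.1% of all genes were called. The order of the lines was opposite in sensitive and resistant cells. GRB14 was 6.24-fold higher in NCI-H1703 than in NCI-H1581 (adjusted p = 0.012 by edgeR) and 5.62-fold lower in NCI-H1703R than in NCI-H1581R (adjusted p = 0.00354), where 59.9% and 49.1% of all genes were called. Without NCI-H1581 replicate 1 the log2 fold change between the sensitive lines was 3.44, against 2.64 with all libraries.

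GRB10, which binds the insulin and IGF1 receptors and is a substrate of mTORC1, was abundant in NCI-H1703 and its variant and near the limit of detection in NCI-H1581 and its variant. It had 15 and 14 counts in NCI-H1581 and 13 and 8 in NCI-H1581R. In NCI-H1703 it had 2824 and 2491 counts and in NCI-H1703R 3750 and 3948. The lines were far apart, with GRB10 190-fold higher in NCI-H1703 than in NCI-H1581 (log2 fold change 7.57; adjusted p = 1.04e-07 by edgeR) and 377-fold higher in NCI-H1703R than in NCI-H1581R (8.56; adjusted p = 4.11e-05).

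With resistance GRB10 rose by little in NCI-H1703R, from 75.4 ± 1.3 to 102 ± 3.58 CPM (SD, n = 2 each). The rise was 1.38-fold (log2 fold change 0.46, SE 0.0829; adjusted p = 0.0227 by edgeR) and larger than the spread between replicates. The call was lost when all 8 libraries shared a fit (adjusted p = 0.162) and without NCI-H1703 replicate 1 (0.17) or replicate 2 (0.195), while the log2 fold change stayed between 0.42 and 0.50 with a library left out. In NCI-H1581R no difference was detectable at these counts (log2 fold change -0.52, 95% interval -2.62 to 1.59; adjusted p = 0.805 by edgeR). How far the change differed between the lines was not called (interaction 0.96, 95% interval 0.165 to 1.75; adjusted p = 0.129 by edgeR), and it was called with a replicate block within each line (adjusted p = 0.0984) and without NCI-H1581R replicate 1 (0.0552).

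Outside the family, GRB2 was the steadiest member. It had 9248 and 9822 counts in NCI-H1581, 11331 and 9695 in NCI-H1581R, 8262 and 8551 in NCI-H1703 and 8819 and 9957 in NCI-H1703R. The sensitive and resistant replicates overlapped in both lines. The log2 fold change was 0.09 in NCI-H1581R (95% interval -0.354 to 0.524) and 0.08 in NCI-H1703R (-0.206 to 0.364), and GRB2 was called in none of the 5 comparisons by edgeR (unadjusted p from 0.338 to 0.909).

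GAB1 rose in NCI-H1581R. It had 49 and 98 counts in NCI-H1581 and 224 and 195 in NCI-H1581R. The replicates did not overlap, a weak mark with 2 against 2 libraries. The level went from 1.95 ± 0.702 to 5.45 ± 0.706 CPM (SD, n = 2 each), a 2.8-fold rise (log2 fold change 1.48, SE 0.403; adjusted p = 0.0674 by edgeR). The call rested on NCI-H1581 replicate 1, the lower of the sensitive libraries: without it the log2 fold change was 1.15 and the adjusted p = 0.306. In NCI-H1703 GAB1 had 194 and 206 counts and in NCI-H1703R 256 and 238, a difference that was not called (log2 fold change 0.22, 95% interval -0.294 to 0.744; adjusted p = 0.619 by edgeR). GAB1 was 2.91-fold higher in NCI-H1703 than in NCI-H1581 (adjusted p = 0.0104), and between the resistant variants no difference was called (log2 fold change 0.29, 95% interval -0.375 to 0.964; adjusted p = 0.429). The interaction was not called (-1.28, 95% interval -2.33 to -0.236; adjusted p = 0.124 by edgeR), but was with DESeq2 (adjusted p = 0.088) and without NCI-H1581 replicate 2 (0.0649 by edgeR).

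Of the 4 members with a test between sensitive and resistant cells, 2 were called in NCI-H1581R, where 14.2% of all genes were called, and 1 in NCI-H1703R, where 14.4% were. With so few members these counts say little beyond the genes themselves.

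**Figure D2:**
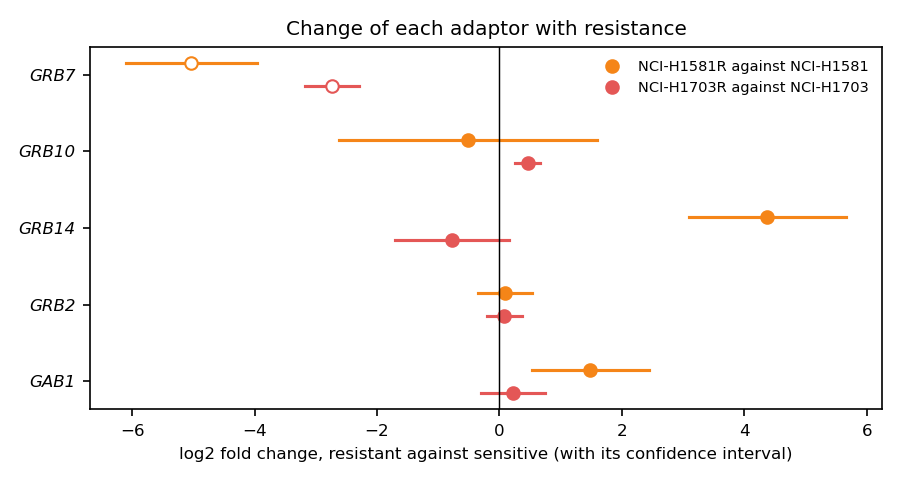
Log2 fold change of each adaptor, resistant against sensitive cells of the same line, with its 95% interval from edgeR. Open symbols mark GRB7, which was chosen for its fall and is shown as a description. GRB14 (4.38) and GAB1 (1.48) rose in NCI-H1581R, GRB10 (0.46) rose in NCI-H1703R, and the other filled intervals cross 0.

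In each variant a single family member held the largest share on a scale per transcript length (CPM per kb of the median protein-coding transcript). In NCI-H1581 GRB7 made up 95.5% ± 0.579 (SD, n = 2) of the summed level of the family. In NCI-H1581R GRB14 made up 91.5% ± 3.4 and GRB7 5.48% ± 2.4. In NCI-H1703 GRB10 held 72.2% ± 1.35 and GRB7 25.3% ± 1.21, and in NCI-H1703R GRB10 held 95.0% ± 0.163. The summed level of the family was 6.52 ± 1.81 CPM per kb in NCI-H1581 and 3.4 ± 0.109 in NCI-H1581R, and 38.7 ± 0.0536 in NCI-H1703 and 39.6 ± 1.46 in NCI-H1703R. In NCI-H1703R the sum thus differed from that of NCI-H1703 by less than the spread between replicates, but it was lower under both other lengths, at 11.5 ± 0.441 against 13.8 ± 0.17 CPM per kb of summed exons and 20.3 ± 0.791 against 23.4 ± 0.238 per kb of the canonical transcript. The share of GRB10 in NCI-H1703 also depended on the length. It was 55.9% with summed exons, with GRB7 at 40.0%, and 59.0% with the canonical transcript, with GRB7 at 38.0%. These shares include the GRB7 values the gene was chosen for and were not tested.

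**Figure D3:**
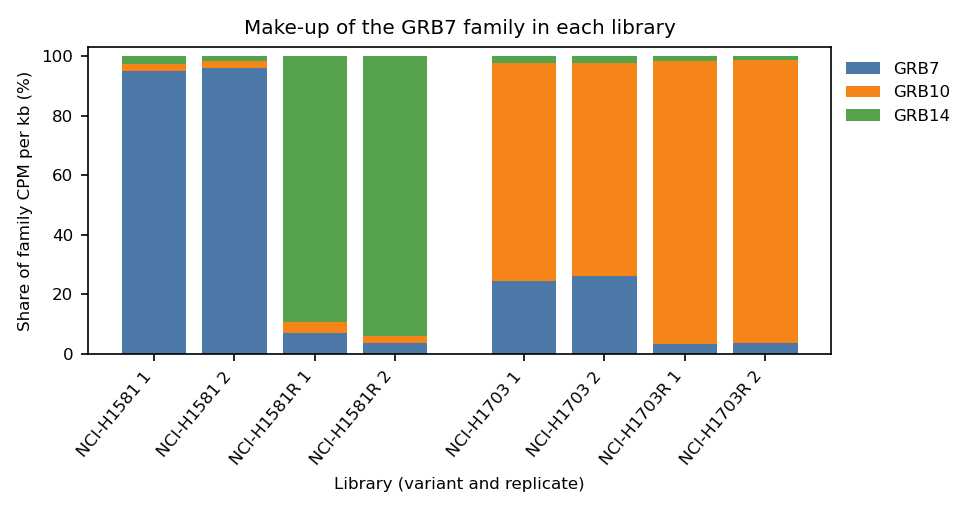
Stacked bars of the share of each GRB7 family member, in percent of the summed CPM per kb, in each of the 8 libraries. GRB7 fills most of the NCI-H1581 bars (95.5% on average), GRB14 most of the NCI-H1581R bars (91.5%), and GRB10 most of the NCI-H1703 (72.2%) and NCI-H1703R (95.0%) bars.

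GRB2 stood above the whole family in every variant on the same scale, at 79.4 to 90.7 CPM per kb as group means. In NCI-H1581 GRB14 (0.152 ± 0.0944 CPM per kb) and GRB10 (0.147 ± 0.025) did not differ beyond their spread, and in NCI-H1581R neither did GRB7 (0.187 ± 0.0876) and GRB10 (0.102 ± 0.0372). The order in NCI-H1703 was GRB10 at 27.9 ± 0.483, GRB7 at 9.8 ± 0.481 and GRB14 at 0.942 ± 0.0559, and in NCI-H1703R it was GRB10 at 37.7 ± 1.33, GRB7 at 1.44 ± 0.201 and GRB14 at 0.538 ± 0.064, all further apart than their spread. The place of GAB1 in this order was not read, since its median transcript (743 bases) is far shorter than its summed exons (10002 bases).

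The genes nearest to GRB7 did not follow it down as a block. Of 23 protein-coding genes tested that start within 500 kb of GRB7, 3 fell and 0 rose in NCI-H1581R, against 7.09% and 7.16% of all genes, and the median log2 fold change of the 23 was 0.09, against 0.04 over all genes. The genes that fell were PPP1R1B, a phosphatase inhibitor (410 and 423 counts in NCI-H1581, 119 and 59 in the resistant cells; log2 fold change -2.28, adjusted p = 0.0136 by edgeR), NR1D1, a circadian repressor (-0.80, adjusted p = 0.0409), and PNMT, which makes adrenaline (-3.34, adjusted p = 0.0146). PNMT was named after its values were seen. Without NCI-H1581R replicate 2 the count was 5. In NCI-H1703R 3 of the 23 rose and 0 fell, against 6.94% and 7.48% of all genes, with a median of 0.15 against 0.00.

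ERBB2, the receptor that GRB7 binds, was among those that rose in NCI-H1703R. It had 7691 and 7266 counts in NCI-H1703 and 10294 and 11105 in NCI-H1703R (log2 fold change 0.44, SE 0.0961; adjusted p = 0.0407 by edgeR). In NCI-H1581 it had 6328 and 7219 counts and in NCI-H1581R 5660 and 6852, which was not called (187.8 and 180.2 against 150.4 and 174.1 CPM; log2 fold change -0.17; adjusted p = 0.647). MIEN1, the nearest gene tested, 7.39 kb from the start of GRB7, rose in the same variant (log2 fold change 0.44, adjusted p = 0.0562 by edgeR), as did STARD3, a cholesterol transporter (0.43, adjusted p = 0.0291). No gene of the region was called in NCI-H1703R when all 8 libraries shared a fit, and with the replicate block 10 of the 23 were called. The shares of all genes called under such refits are not given, here or for the lists below. The shifts in these counts are therefore not a result about the listed genes.

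The neighbourhood of GRB14 moved in both directions in NCI-H1581R. COBLL1, an actin-binding protein gene 222 kb from the start of GRB14, had 195 and 319 counts in NCI-H1581 and 9 and 21 in NCI-H1581R (log2 fold change -4.13, SE 0.518; adjusted p = 0.00295 by edgeR). SLC38A11, named after its values were seen, fell as well (-5.32, adjusted p = 0.0292). On the other side FIGN, a microtubule-severing enzyme and the nearest gene tested at 886 kb, rose with GRB14, from 223 and 191 counts to 4004 and 4720 (4.33, SE 0.231; adjusted p = 6.9e-05). In NCI-H1703R FIGN fell (-0.75, adjusted p = 0.0348) and COBLL1 was not called (-0.29, adjusted p = 0.423). Both genes within 500 kb of GRB14 were thus called lower in NCI-H1581R, where 7.09% of all genes were.

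**Figure D4:**
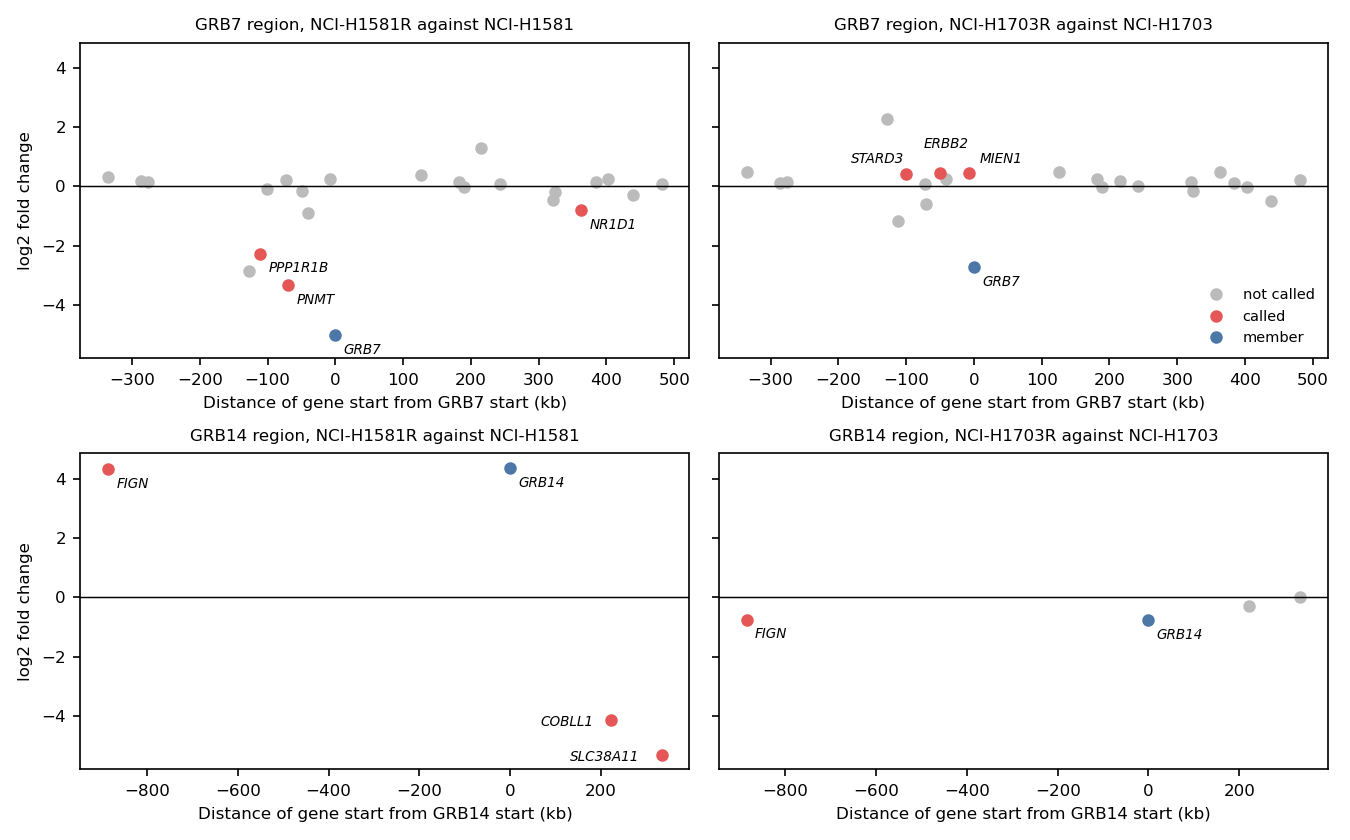
Log2 fold change, resistant against sensitive, of protein-coding genes tested within 500 kb of GRB7 (top) and GRB14 (bottom, with FIGN as the nearest gene on its side), by the distance of their start from that of the member, in kb. Red points are genes called by edgeR at an adjusted p under 0.1 and blue points the members. Around GRB7 most genes lie near 0, and around GRB14 in NCI-H1581R, FIGN (4.33) lies high with GRB14 while COBLL1 (-4.13) and SLC38A11 (-5.32) lie low.

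Around the other members the calls are given beside the 14.2% of all genes called in NCI-H1581R and 14.4% in NCI-H1703R. Of 34 genes tested around GRB2, TRIM47, a ubiquitin ligase, fell in NCI-H1581R (-2.33, adjusted p = 0.000609 by edgeR) and rose in NCI-H1703R (0.40, adjusted p = 0.0721), where WBP2 also rose (0.44, adjusted p = 0.0277) and the integrin gene ITGB4 fell (-1.38, adjusted p = 0.0258). Near GAB1, 1 of 3 genes tested was called, the lipid phosphatase INPP4B, named after its values were seen (-1.82 in NCI-H1581R, adjusted p = 0.029). FIGNL1, the only gene tested within 500 kb of GRB10, was called with resistance in neither line. Nor was COBL, the nearest gene tested on the other side of GRB10, at 523 kb. Between the lines COBL was 76.4-fold higher in NCI-H1703 than in NCI-H1581 (adjusted p = 1.5e-05 by edgeR). It was 139-fold higher in NCI-H1703R than in NCI-H1581R (8.89e-05). FIGNL1 was 1.47-fold and 1.52-fold higher (0.00931 and 0.0379). In these comparisons 59.9% and 49.1% of all genes were called, and COBL had 4 to 14 counts in NCI-H1581 and its variant.

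Of 17 receptors and kinases that these adaptors bind, 1 rose and 2 fell in NCI-H1581R, where 7.16% of all genes rose and 7.09% fell (median log2 fold change -0.11, against 0.04 over all genes). In NCI-H1703R 3 rose and 2 fell, where 6.94% and 7.48% of all genes did (median -0.13 against 0.00). FGFR1 fell in both variants, from 6982 and 6839 to 1017 and 1383 counts in NCI-H1581R (-2.59, adjusted p = 0.000405 by edgeR) and from 31031 and 26898 to 21044 and 21773 in NCI-H1703R (-0.51, adjusted p = 0.0364). FGFR2 fell in NCI-H1581R, from 6319 and 7232 to 189 and 38 counts (-5.94, adjusted p = 0.00171). FGFR3 rose in NCI-H1703R, from 2491 and 1852 to 13653 and 11077 counts (2.45, adjusted p = 0.000707).

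The receptor that rose in NCI-H1581R was TEK, the angiopoietin receptor, which GRB7 and GRB14 can bind. It had 1 count in each NCI-H1581 library and 390 and 572 counts in NCI-H1581R (adjusted p = 9.19e-05 by edgeR), while NCI-H1703 and NCI-H1703R had 0 to 3 counts. In NCI-H1703R ERBB4 also rose (3.77, adjusted p = 0.0361 by edgeR), named after its values were seen and with a mean under 5 CPM in the line. EGFR fell there, from 12341 and 11220 to 8471 and 9648 counts (-0.45, adjusted p = 0.045 by edgeR). ERBB3 (-0.70, adjusted p = 0.101 in NCI-H1581R), INSR (0.12, adjusted p = 0.819) and IGF1R (0.36, adjusted p = 0.83), the receptors of neuregulin, insulin and IGF1, were not called in that variant, nor in NCI-H1703R. With the replicate block 10 of the 17 were called in NCI-H1703R, and when all 8 libraries shared a fit 2 were, and 5 in NCI-H1581R. Without NCI-H1703 replicate 1 or replicate 2 there was 1 in NCI-H1703R, and without NCI-H1581R replicate 2 there were 5 in NCI-H1581R.

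Of 23 adaptors and effectors linked to GRB2, 5 rose and 1 fell in NCI-H1581R, against 7.16% and 7.09% of all genes (median 0.24 against 0.04), and 1 rose and 3 fell in NCI-H1703R, against 6.94% and 7.48% (median 0.07 against 0.00). GAB2, a docking protein related to GAB1, rose in NCI-H1581R, from 1108 and 1266 to 1664 and 2607 counts (0.79, adjusted p = 0.0828 by edgeR), and fell in NCI-H1703R, from 137 and 67 to 31 and 30 (-1.79, adjusted p = 0.0517), and the interaction was called (-2.60, adjusted p = 0.00816). The Ras activator SOS2 (1.10, adjusted p = 0.0438) and the adaptor SHC2 (0.87, adjusted p = 0.0219) rose in NCI-H1581R, as did PIK3R3 (0.75, adjusted p = 0.0447) and CBLB (3.35, adjusted p = 0.00995), both named after their values were seen, and SHC1 fell (-0.88, adjusted p = 0.0414).

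In NCI-H1703R the PI3K subunit PIK3R2 rose (0.31, adjusted p = 0.0791 by edgeR), and CRKL (-0.56, adjusted p = 0.0176) and GAB3 (-0.98, adjusted p = 0.086; named after its values were seen) fell. SOS1 and the FGFR substrate FRS2 were called in neither variant. The count in NCI-H1581R ran from 1 without NCI-H1581 replicate 1 and 3 without NCI-H1581 replicate 2 to 11 without NCI-H1581R replicate 1. That in NCI-H1703R was 12 with the replicate block, 2 when all 8 libraries shared a fit, 0 without either NCI-H1703 replicate, 2 without NCI-H1703R replicate 1 and 1 without NCI-H1703R replicate 2.

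Of 16 adaptors of the insulin receptor and partners of GRB10, 1 rose and 2 fell in NCI-H1581R, and 2 rose and 0 fell in NCI-H1703R (medians -0.05 and 0.18, against 0.04 and 0.00 over all genes). These counts are near the 14.2% and 14.4% of all genes called in either direction. NEDD4, the ubiquitin ligase that binds GRB10, rose in NCI-H1581R from 759 and 854 to 1755 and 2266 counts (1.26, adjusted p = 0.00651 by edgeR). IRS1, the main insulin receptor substrate, fell there from 7404 and 8474 to 3516 and 4129 counts (-1.11, adjusted p = 0.00745). DOK4 fell in NCI-H1581R (-0.73, adjusted p = 0.0523) and rose in NCI-H1703R (0.55, adjusted p = 0.0485), and the adaptor SH2B3 rose in NCI-H1703R (0.87, adjusted p = 0.0027). With the replicate block 8 of the 16 were called in NCI-H1703R, and without NCI-H1581R replicate 1 or replicate 2 there were 6 in NCI-H1581R. In NCI-H1703R 1 was called when all 8 libraries shared a fit, without NCI-H1703 replicate 1 or 2 and without NCI-H1703R replicate 2. RAPH1, which shares the Ras-associating and pleckstrin homology domains of the family, fell in NCI-H1703R (-0.37, adjusted p = 0.0871).

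Genes whose pattern over the 8 libraries lay nearest to that of a family member were found by the root mean square difference of centred log2 CPM among 13375 genes. Nearest to GRB7 were CHST7, a sulfotransferase (0.532), the gene ENSG00000258589 (0.624), STING1, the sensor adaptor of cytosolic DNA signalling (0.647), CD83 (0.666) and DLX1 (0.854). CHST7 had 1548 and 1658 counts in NCI-H1581, 54 and 34 in NCI-H1581R, 1418 and 1400 in NCI-H1703 and 509 and 714 in NCI-H1703R. In NCI-H1703R the log2 fold changes were -1.283 (CHST7), -1.608 (ENSG00000258589), -2.331 (STING1), -1.235 (CD83) and -0.433 (DLX1, not called), against -2.74 for GRB7. Nearest to GRB14 were DMD (0.33), DSE (0.369) and OSR2 (0.442), and nearest to GRB10 were ENSG00000273686 (0.192), TM4SF1 (0.249) and NLGN4Y (0.274). NLGN4Y had 0 or 1 counts in the libraries of NCI-H1581 and NCI-H1581R, so its likeness to GRB10 rests on values at the floor in that line. These likenesses are descriptions over 4 variants of 2 lines.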

How the data were processed

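RNA of 4 variants of 2 cell lines was measured in 8 libraries. Per the methods, the authors ran Salmon against GRCh38 and imported its transcript estimates with tximport. The deposited table holds estimated counts by gene, whole numbers that were not normalised. The submitters' notes also name cutadapt. Tool versions, annotation, strandedness and tximport scaling are not given in the sources used here. Samples were grouped by their labels.

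Tests used edgeR 4.0.16 in R 4.3.3 (TMM, quasi-likelihood, two-sided) on the 4 libraries of each comparison, and all 8 for the interaction, with Benjamini-Hochberg adjustment over 18203 genes. Genes with at least 10 counts in total were kept. Standard errors were the log2 fold change divided by the root of F. Same-numbered replicates were taken to pair within a line, since seeding, medium change and harvest were done again for replicate 2. Replicate differences over 9716 genes correlated positively between sensitive and resistant cells of a line, at 0.284 for NCI-H1581 and 0.553 for NCI-H1703. Across the lines, NCI-H1581 stood at 0.083 with NCI-H1703 and -0.138 with NCI-H1703R. NCI-H1581R stood at -0.364 with NCI-H1703 and -0.566 with NCI-H1703R. The last value is as large in size as the higher value within a line. Whether the pairing is specific to a line was not tested. The main tests, with their intervals and adjusted p-values, did not use this pairing. Within a line the replicate block among the alternatives did.

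Alternatives were DESeq2 1.42.0, RLE factors, other filters, a replicate block, 1 fit of all libraries, and each replicate left out. The block within each line, the canonical transcript length and 7 other dispersion, scaling or filter settings of edgeR were added after seeing the data. The scripts were tested on simulated data; where dispersions were drawn gene by gene, more of the calls were false than the threshold allows. A test of GRB7 between the lines had been planned and was not read, since it uses the values GRB7 was chosen for. The members and gene lists were chosen with earlier results of these data known. Named genes were the members, 10 receptors and adaptors, up to 3 called genes per list and direction with a mean of at least 5 CPM in the line, the nearest gene on each side and the nearest patterns. ERBB4, CBLB, GAB3, PNMT, SLC38A11 and INPP4B, named after their values were seen, lay under that level in the line of their call.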

Additional observations from a re-analysis of the deposited data

Results flagged for a closer look

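The change with resistance differed between the lines, by the interaction term in edgeR at an adjusted p under 0.1, for GRB14 and for 19 of 38 named genes that are neither members nor nearest patterns, against 16.1% of all genes. Most of the 38 were named because they were called in a line, so the count itself is not a result. Values are the log2 fold change in NCI-H1703R minus that in NCI-H1581R, each against its own sensitive line. GRB14 stood at -5.16 (SE 0.696, adjusted p = 0.0028).

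Among receptors the values were ERBB2 (0.59), FGFR1 (2.06), FGFR2 (5.76), FGFR3 (1.49) and TEK (-8.78). That of TEK rests on 1 count in each NCI-H1581 library and is no bound. Among adaptors, effectors and partners they were CRKL (-0.71), GAB2 (-2.60), PIK3R2 (0.78), SHC1 (0.88), SHC2 (-0.72), SOS2 (-0.92), IRS1 (1.58), DOK4 (1.26), NEDD4 (-1.33) and RAPH1 (-1.13).

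For genes beside the members they were COBLL1 (3.82), FIGN (-5.10), NR1D1 (1.27) and TRIM47 (2.72).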

How the results depend on the processing

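Of 309 refits of the members' log2 fold changes other than leaving out a library, 301 kept direction and, where tested, side of the threshold. The dispersion and scaling settings added after seeing the data changed none of them. Of these, the trended dispersion and the robust dispersion estimate only returned the values of the main fit, as for GAB1 and GRB10. Their agreement was fixed in advance, so the tally overstates how steady the results were. In a fit of all 8 libraries GRB10 in NCI-H1703R (0.43, adjusted p = 0.162) lost its call by edgeR. The interaction of GAB1 was called with DESeq2 (-1.24, adjusted p = 0.088) and with at least 10 counts in every library (-1.24, 0.0792), and that of GRB10 with a replicate block within each line (0.97, 0.0984). The interaction of GRB2, near 0, changed sign with DESeq2 (0.0197), RLE (0.0197), at least 10 counts in every library (0.0156) and no filter (0.0122). The cause was not tested.

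Members called in NCI-H1581R numbered 1 with at least 10 counts in every library, which drops GRB14, and between the resistant variants 1, which drops GRB10. In NCI-H1703R they numbered 0 in the fit of all 8 libraries, and in the interaction 2 with DESeq2 and with the block within each line. In NCI-H1703R the replicate block raised list calls to 10 (receptors), 12 (GRB2-linked), 8 (insulin receptor adaptors) and 10 (neighbours of GRB7), and the fit of all 8 libraries lowered them to 2, 2, 1 and 0, with 5 receptors in NCI-H1581R. Without the shares of all genes called under the same fits, these shifts are not a result about the lists. The replicate block ended no call of a member.

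The share of GRB10 was 59.0% (canonical) and 55.9% (summed exons) in NCI-H1703 and 91.7% and 90.2% in NCI-H1703R, and that of GRB7 in NCI-H1581 96.9% and 96.5%.

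With each library left out, the lone replicate was assumed to vary like the other groups. In NCI-H1581R log2 fold changes ran from -5.59 to -4.64 (GRB7), 3.83 to 5.16 (GRB14), 1.15 to 1.91 (GAB1) and -0.0582 to 0.20 (GRB2), and in NCI-H1703R from 0.42 to 0.50 (GRB10) and -0.0327 to 0.20 (GRB2). Between the sensitive lines GRB7 ran from 0.40 to 0.96 and GRB14 from 2.10 to 3.44. Interactions ran from 1.86 to 2.84 (GRB7), -5.97 to -4.63 (GRB14), 0.62 to 1.37 (GRB10), -1.71 to -0.96 (GAB1; called without NCI-H1581 replicate 2, adjusted p = 0.0649 by edgeR) and -0.16 to 0.13 (GRB2). Members called ran from 1 to 2 in NCI-H1581R, 0 to 1 in NCI-H1703R and 1 to 2 in the interaction. List calls in NCI-H1581R ran from 3 to 5 (receptors), 1 to 11 (GRB2-linked), 2 to 6 (insulin receptor adaptors) and 2 to 5 (neighbours of GRB7), and in NCI-H1703R from 1 to 5, 0 to 2, 1 to 3 and 0 to 3.

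With 2 replicates a variant and 6 to 19 counts in the lowest libraries of GRB7, GRB10 and GRB14, fold changes from these levels are coarse.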

Other observations

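KRT5, a basal keratin, had 0 or 1 counts in replicate 1 and 35 to 47 counts in replicate 2 of all 4 variants, and KRT7 had 21 to 83 counts in replicate 1 and 157 to 176 in replicate 2. Both were chosen after their values were seen. None of the 5 adaptors showed such a split by replicate number.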
